A study of Mus musculus with 12 samples.

Results

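Butyrate, acetate and propionate are short-chain fatty acids that bacteria in the gut lumen make from fiber, and the genes described here are those with which the host takes up, senses and burns them in the proximal colonic mucosa of APC Min/+ and wild type (WT) mice. The 9 genes were listed by name from the textbook route of butyrate and looked up by their Ensembl identifiers among the 38924 genes in the count tables. All 9 were found, and all 9 were among the 20311 genes that had 10 counts or more in 3 mice or more. They were Slc16a1 and Slc5a8 (uptake), Acads and Acat1 (oxidation), Bdh1 (ketone bodies), Ffar2, Ffar3 and Hcar2 (receptors) and Pparg (a nuclear receptor). Total RNA was sequenced from 6 female APC Min/+ mice and 6 female WT mice of the C57BL/6 strain, 1 library per mouse, with no treatment named and all 6 weeks of age. The APC Min/+ mice carry 1 copy of Apc with the Min truncating mutation in all cells of the body and keep a normal copy, and the WT mice are the controls. The genotypes were housed in separate cages, so that cage and genotype cannot be told apart, and the labels do not give the shipment of each mouse.

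Butyrate is a principal fuel of the cells lining the colon. It enters through the proton-coupled carrier MCT1, encoded by Slc16a1, and the sodium-coupled carrier SMCT1, encoded by Slc5a8, is activated to butyryl-CoA and is shortened by beta-oxidation in the mitochondria, where Acads takes the first step and Acat1 interconverts acetoacetyl-CoA and acetyl-CoA. Acetyl-CoA can then be burned or turned into ketone bodies, a route in which Bdh1 takes the last step, while Oxct1 is needed to burn ketone bodies. The receptors GPR43 (Ffar2), GPR41 (Ffar3) and GPR109A (Hcar2) respond to short-chain fatty acids or butyrate at the cell surface, and butyrate also inhibits histone deacetylases. In colonic epithelium Pparg is a regulator of genes of lipid handling and of differentiation.

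The total count on genes lay between 50313805 and 197914821 per mouse (median 96605059 in APC Min/+ and 100161198 in WT mice) with no detectable difference between genotypes on the log2 scale (exact permutation test, two-sided, p = 0.281). Levels are given as CPM (counts scaled to library size and TMM factors of 0.906 to 1.10), and 3 counts correspond to 0.0152 to 0.0596 CPM. Apc itself stood at a mean of 192.2 ± 16.97 CPM in the APC Min/+ and 186.2 ± 30.68 CPM in the WT group (SD, n = 6 each), and these counts do not separate the alleles. APC Min/+ mice M10_2 and M13_1 stood apart from the other 10 mice. Of the 8 markers of distal position, 6 passed the filter on low counts (Evx1 and Evx2 did not), and the list summed to 477 and 612 CPM in M10_2 and M13_1, against 7.67 to 14.7 CPM in the other 10 mice. Hoxb13, a homeobox gene of the hindgut end, was at 377.8 and 274.7 CPM in them and at 0 to 0.7438 CPM elsewhere, and Hoxa13 was at 76.56, 61.78 and 0.9212 to 2.746 CPM in the same order. All libraries are labelled proximal, and in M10_2 and M13_1 the levels of Hoxb13 and Hoxa13 go against that label. The levels and genotype differences of the 9 genes are therefore given with and without both mice. WT mouse M17_1 had low counts of GC-rich genes: genes in the upper quartile of exonic GC content (54% or more) lay at a median of -0.52 on the log2 scale from their usual level in M17_1, and at -0.30 to 0.18 in the other mice. Colonocyte markers summed to 9481 to 15848 CPM in all 12 mice. Smooth muscle markers were also abundant (4556 to 7147 CPM in APC Min/+ and 4812 to 6066 CPM in WT mice, with Myh11 at 1423 to 2401 CPM and Des at 313.5 to 709.4 CPM), so the pieces labelled as mucosa held muscle RNA. An unadjusted p under 0.05 (edgeR's quasi-likelihood test) was found for 4 of the 8, all higher in APC Min/+ mice, beside 3.46% of all genes. Without M10_2 and M13_1 it was found for 2 of the 8, both higher, beside 0.531% of all genes. None of the 8 had an FDR under 0.05. The part of muscle in the genotype differences of the 9 genes was not tested. In such bulk tissue, fewer cells of a type and less RNA per cell cannot be told apart.

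The promoters of both carriers are shown because they serve the same step of uptake, while Slc5a8 and not Slc16a1 was set apart in M10_2 and M13_1 (values below). The sequences are from RefSeq on GRCm38.p6, cover the 250 bases before the annotated start on the gene's own strand, and capitals mark matches to the GC box GGGCGG or its reverse complement CCGCCC.
Slc5a8: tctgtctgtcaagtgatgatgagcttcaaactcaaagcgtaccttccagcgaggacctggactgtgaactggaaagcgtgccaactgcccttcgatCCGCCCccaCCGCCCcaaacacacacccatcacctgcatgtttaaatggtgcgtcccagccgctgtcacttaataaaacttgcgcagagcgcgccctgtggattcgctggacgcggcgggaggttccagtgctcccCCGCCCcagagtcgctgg
Slc16a1: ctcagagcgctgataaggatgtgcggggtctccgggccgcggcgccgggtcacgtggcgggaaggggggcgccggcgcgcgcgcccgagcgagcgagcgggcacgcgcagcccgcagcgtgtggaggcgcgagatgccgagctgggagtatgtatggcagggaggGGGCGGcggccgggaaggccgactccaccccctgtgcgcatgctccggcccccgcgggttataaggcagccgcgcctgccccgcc
The Slc5a8 window (chr10:88885742-88885991, forward strand) is 58.8% G or C and holds 3 GC box matches. The Slc16a1 window (chr3:104638414-104638663, forward strand) is 76.4% G or C and holds 1. A GC box match was present in 32.7% of all 32851 RefSeq promoter windows of that length, searched on both strands. Promoter windows were found for 7 of the 9 genes, 13 windows in all, and Acat1 and Hcar2 had no entry. CAATAAA and TCGTAAA, forms bound by posterior HOX and CDX proteins, were in none of the 13. They occur in only 4.2% and 0.478% of all windows, so 13 windows are too few to read anything from their absence. AGGTCA, the half-site of nuclear receptors such as PPARs, occurred in some windows of Pparg and Ffar2, and in 14% of all windows. The Ffar2 windows at 30821193 to 30821442 and 30821140 to 30821389 overlap and hold the same match. The 13 windows are thus not separate, and no share of them is set against the 14%. These letters describe the windows only and say nothing of what binds there.

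In GENCODE M21 on GRCm38, Slc16a1 (ENSMUSG00000032902.1) lies on chromosome 3 from 104638668 to 104658462 and Slc5a8 (ENSMUSG00000020062.6) on chromosome 10 from 88885992 to 88929515, both on the forward strand. Acads (ENSMUSG00000029545.7) lies on chromosome 5 from 115110299 to 115119346 and Acat1 (ENSMUSG00000032047.5) on chromosome 9 from 53580522 to 53610382, both on the reverse strand. Bdh1 (ENSMUSG00000046598.8, chromosome 16, forward strand, 31422280 to 31458901) shares 533 exonic bases (13.7%) with the antisense gene Gm15743. Ffar2 (ENSMUSG00000051314.5, 30818348 to 30823775) and Ffar3 (ENSMUSG00000019429.6, 30854330 to 30856178) are neighbors on the reverse strand of chromosome 7. Hcar2 (ENSMUSG00000045502.5) lies on the reverse strand of chromosome 5 from 123863570 to 123865499, and Pparg (ENSMUSG00000000440.6, 115360951 to 115490399) on the forward strand of chromosome 6. Whether the counting used strand is not given in the sources used here, so reads of Bdh1 and Gm15743 cannot be told apart over their shared bases.

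Uptake, oxidation and Pparg transcripts were abundant and receptor transcripts were scarce. Per length, as RPKM (mean ± SD, n = 12 mice), Slc16a1 led at 93.66 ± 25.67, followed by Acads at 70.22 ± 29.85, Pparg at 70.17 ± 24.88, Acat1 at 44.92 ± 3.68, Bdh1 at 43.42 ± 11.45 and Slc5a8 at 43.04 ± 29.55. The receptors followed, with Ffar2 at 4.238 ± 1.365, Hcar2 at 0.7395 ± 0.1925 and Ffar3 at 0.6194 ± 0.1497 RPKM. Of the 8 steps between neighbors in this order, 2 had ranges that did not overlap, namely Slc5a8 above Ffar2 and Ffar2 above Hcar2, each in 12 of 12 mice, and the other neighbors overlapped. Without M10_2 and M13_1 the mean of Slc5a8 was 30.47 ± 3.818 RPKM (n = 10 mice), and its range lay wholly below that of Acat1 (44.06 ± 3.354 RPKM) in 10 of 10 mice. Without them Pparg (80.02 ± 10.4 RPKM) also ranked above Acads (74.44 ± 31.04 RPKM) and Bdh1 (45.31 ± 11.65 RPKM) above Acat1, and those neighbors overlapped. Ffar3 was counted with 50 to 228 reads per mouse and Hcar2 with 72 to 234, so both were measurable at this depth, although their precision is lower than that of Slc16a1, with 15626 to 118121.

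**Figure D1:**
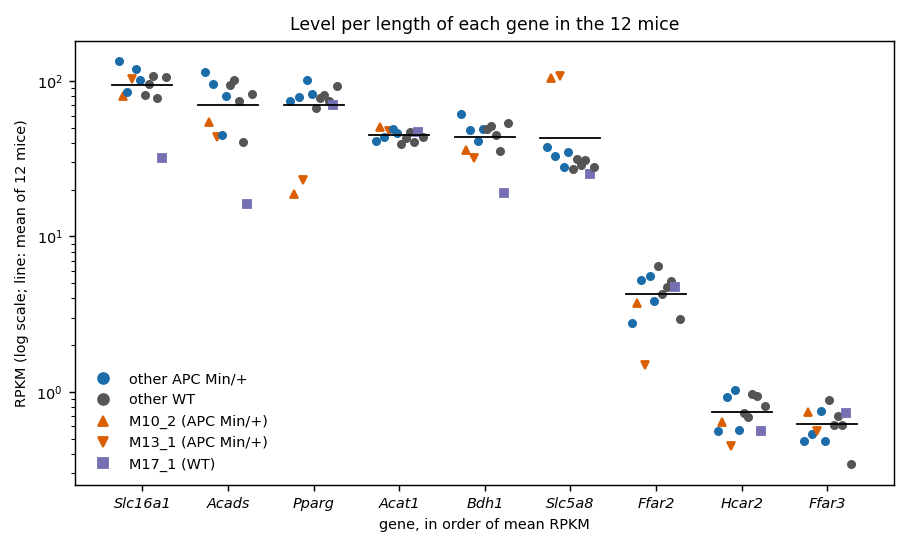
RPKM of each gene in the 12 mice on a log axis, in order of the mean (horizontal line), with 1 point per mouse and M10_2, M13_1 and M17_1 marked. The receptors Ffar2, Hcar2 and Ffar3 had means of 4.238, 0.7395 and 0.6194, while the other genes had means of 43.04 to 93.66.

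The comparison of genotypes asks whether the mucosa of mice that will form polyps handles short-chain fatty acids differently before polyps appear. None of the 9 genes passed the test. A gene was called in edgeR's quasi-likelihood test if its false discovery rate (FDR, Benjamini-Hochberg) was under 0.05 and its fold change 2 or more, which 0 of the 9 genes reached, and 0% of the 20311 genes tested. An unadjusted p under 0.05 was found for 1 of the 9 genes, Slc5a8, and for 5.27% of all genes (3.46% higher and 1.81% lower in APC Min/+ mice). The ranges of the genotypes overlapped for all 9 genes, with and without M10_2 and M13_1. Across all genes tested, every APC Min/+ mouse lay above every WT mouse for 0.0443% and below for 0.0739%, and without M10_2 and M13_1 for 0.105% and 0.14%. The median log2 fold change of the 9 genes was 0.05, beside -0.008 over all genes tested, and without M10_2 and M13_1 it was 0.11 beside -0.006. Fold changes below are APC Min/+ over WT on the log2 scale with the standard error (SE), and the FDR is that of the edgeR test. Without M10_2 and M13_1 the FDR was 1 for each of the 9 genes, and 0 of them had an unadjusted p under 0.05, as 1.59% of all genes did (0.531% higher and 1.06% lower).

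**Figure D2:**
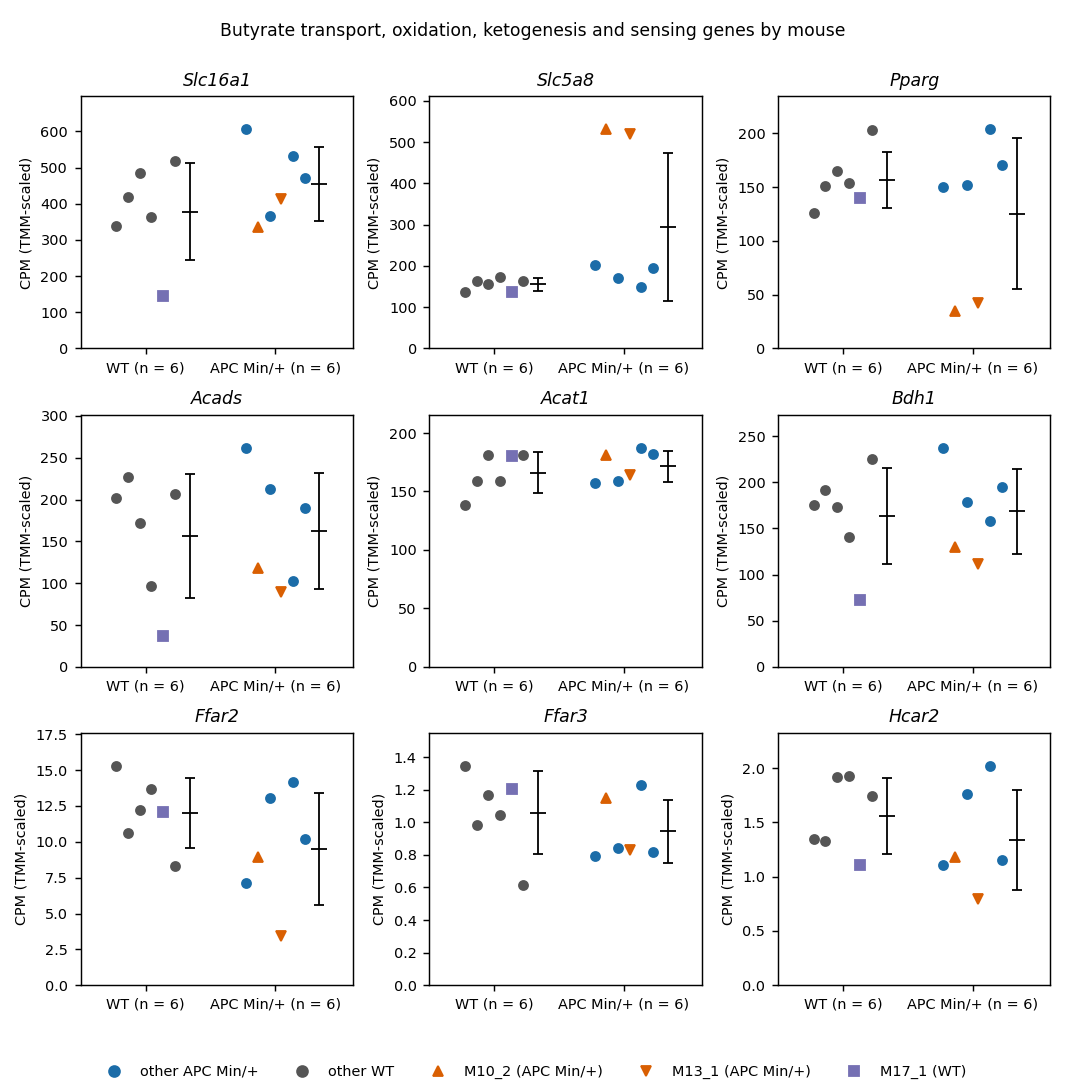
CPM of each gene by genotype, 1 point per mouse, with the mean and SD of each genotype at the right of its points (n = 6) and every axis starting at 0. M10_2 and M13_1 were the 2 highest of 12 mice for Slc5a8 and the 2 lowest for Pparg, and M17_1 was the lowest for Slc16a1, Acads and Bdh1.

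Slc5a8 and Slc16a1 carry butyrate into the colonocyte, and they varied in different mice. Slc5a8 ranged from 149.4 to 531 CPM with a median of 198.6 in APC Min/+ mice and from 135.9 to 173.1 CPM with a median of 160.3 in WT mice. The 2 highest of all 12 were APC Min/+ mice M10_2 (531 CPM) and M13_1 (518.6 CPM), while the other 10 mice, of both genotypes, stayed between 135.9 and 203 CPM. M10_2 stood at 3.24 times and M13_1 at 3.17 times the median of those 10 mice. Genotype means were 294.3 ± 179.5 and 155 ± 15.44 CPM (SD, n = 6 each), and the coefficient of variation was 61% in APC Min/+ and 9.96% in WT mice. The log2 fold change of Slc5a8 was 0.92 (SE 0.316, FDR = 0.908 from edgeR), with an exact permutation p of 0.026 on log2(CPM + 0.1) (two-sided, 0.893 adjusted over all genes). Without M10_2 and M13_1 the APC Min/+ mean was 179.1 ± 24.26 CPM (n = 4), with a log2 fold change of 0.21 (SE 0.118) and a coefficient of variation of 13.5%. Leaving out M10_2 alone gave 0.67 and M13_1 alone 0.69. Hoxb13 and Hoxa13 were high in M10_2 and M13_1, and their part in the Slc5a8 values was not tested.

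Slc16a1 ranged from 336.9 to 605.9 CPM with a median of 442 in APC Min/+ mice and from 143.9 to 517.6 CPM with a median of 391.2 in WT mice. The lowest value belonged to WT mouse M17_1, and M10_2 (336.9 CPM) and M13_1 (413.2 CPM) lay inside the range of the other 10 mice. Its log2 fold change was 0.26 (SE 0.257, FDR = 0.91 from edgeR), about the size of its SE, and 0.38 (SE 0.284) without M10_2 and M13_1. With M17_1 left out as well it was 0.22, and with M17_1 alone left out 0.092. The low counts of GC-rich genes in M17_1 stand beside a GC content of 42.9% for Slc16a1, below that of most expressed genes (percentile 16.5), and the part of this in the M17_1 value was not tested. The RPKM of Slc5a8 over that of Slc16a1 was 1.31 in M10_2 and 1.04 in M13_1 and 0.234 to 0.789 in the other 10 mice, so the sodium-coupled carrier was the more abundant transcript of the pair per length in those 2 mice alone.

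The mitochondrial and ketone enzymes had nearly equal genotype means. Acads, the short-chain acyl-CoA dehydrogenase, ranged from 89.84 to 262.1 CPM with a median of 154.2 in APC Min/+ mice and from 37.07 to 226.5 CPM with a median of 186.7 in WT mice. It was the most variable of the 9 genes in WT mice (coefficient of variation 47.3%, and 42.6% in APC Min/+ mice), with M17_1 lowest. The log2 fold change of Acads was 0.054 (SE 0.39, FDR = 0.984 from edgeR), and it was 0.29 (SE 0.415) without M10_2 and M13_1 and -0.15 without M17_1 alone. Acads had a GC content of 59.7%, higher than 96.4% of expressed genes. Its low mice M17_1 (37.07 CPM), M13_1 (89.84 CPM), M18_2a (96.93 CPM) and M2_A (102.6 CPM) were those whose GC-rich genes lay lowest (-0.52, -0.14, -0.22 and -0.30), and the part of GC content in the Acads values was not tested.

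Acat1, the mitochondrial acetoacetyl-CoA thiolase, varied little. It ranged from 157 to 187.5 CPM in APC Min/+ mice (median 172.5) and from 138.1 to 180.9 CPM in WT mice (median 169.5), with coefficients of variation of 7.74%, the lowest of the 9 genes, and 10.5%, above Slc5a8 alone. M10_2, M13_1 and M17_1 all lay within the range of the other mice. The log2 fold change of Acat1 was 0.046 (SE 0.0967, FDR = 0.933 from edgeR), and 0.042 without M10_2 and M13_1, the tightest estimate among the 9 genes.

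Bdh1, which converts acetoacetate to beta-hydroxybutyrate, ranged from 111.4 to 237.5 CPM with a median of 168.2 in APC Min/+ mice and from 72.94 to 225.5 CPM with a median of 174.3 in WT mice. M17_1 was again the lowest of all, and M13_1 (111.4 CPM) and M10_2 (129.4 CPM) were the next lowest. The log2 fold change of Bdh1 was 0.045 (SE 0.245, FDR = 0.978 from edgeR) and 0.24 (SE 0.248) without M10_2 and M13_1, and -0.11 without M17_1 alone. M17_1 was the lowest of the 12 mice for 3 of the 9 genes, Slc16a1, Acads and Bdh1, and for 21.7% of all genes tested.

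The 3 receptors had lower means in APC Min/+ mice, and none of them passed the test. Ffar2, the GPR43 receptor for acetate, propionate and butyrate, ranged from 3.457 to 14.14 CPM in APC Min/+ mice (median 9.582) and from 8.281 to 15.28 CPM in WT mice (median 12.14). M13_1 was the lowest of the 12 at 3.457 CPM, while M10_2, at 8.96 CPM, was above the lowest of the others. The log2 fold change of Ffar2 was -0.34 (SE 0.275, FDR = 0.91 from edgeR) and -0.11 (SE 0.208) without M10_2 and M13_1, with -0.47 to -0.17 over the fits that each left out 1 mouse (highest without M13_1). Ffar3, the GPR41 receptor, ranged from 0.7951 to 1.23 CPM in APC Min/+ and from 0.6125 to 1.345 CPM in WT mice, and its log2 fold change was -0.16 (SE 0.206, FDR = 0.911 from edgeR) and -0.20 (SE 0.234) without the 2 mice, with -0.27 to -0.087 over the fits that each left out 1 mouse (lowest without M18_b, highest without M17_2). Hcar2, the GPR109A receptor for butyrate, niacin and beta-hydroxybutyrate, ranged from 0.7953 to 2.018 CPM in APC Min/+ and from 1.105 to 1.925 CPM in WT mice, and its log2 fold change was -0.22 (SE 0.237, FDR = 0.91 from edgeR) and -0.05 without the 2 mice, with -0.36 to -0.11 over the fits lacking 1 mouse (highest without M13_1). Ffar2 stood at 4.99 times Ffar3 per length (RPKM) in M10_2 and 2.68 times in M13_1, below the 5.75 to 9.91 times of the other 10 mice.

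Markers of other cell types known to carry these receptors were measured as well. Enteroendocrine markers (8 of 8 past the filter) summed to 300 to 605 CPM in APC Min/+ and 401 to 605 CPM in WT mice, with the lowest sum in M13_1, the mouse with the least Ffar2, and M10_2 (438 CPM) within the 373 to 605 CPM of the others. Of the 8, 5 were lowest and 2 highest in both M10_2 and M13_1, beside 12.2% and 11.8% of all genes tested. Chga, a granule protein of these cells, was at 61.63 and 43.02 CPM in M10_2 and M13_1 against 68.69 to 163 CPM elsewhere, and Chgb at 110.3 and 94.93 CPM against 178.5 to 333.4 CPM. The hormone genes Insl5 (142.4 and 75.56 CPM against 0.9234 to 4.053 CPM) and Pyy (71.88 and 53.26 CPM against 12.22 to 33.14 CPM) were the highest ones. Their part in the Ffar2 values was not tested. Neutrophil markers summed to 2.84 to 13 CPM in APC Min/+ and 5.54 to 16.3 CPM in WT mice, with S100a8 at no more than 0.1471 CPM and S100a9 at no more than 0.313 CPM in any mouse and Cxcr2 and Mmp8 below the filter. Other genes of that list were higher, with Mmp9 at up to 8.262 CPM, Retnlg at up to 4.799 CPM and Csf3r at 0.4198 to 1.704 CPM, and the part of neutrophils in the receptor values was not tested. Macrophage and monocyte markers summed to 215 to 404 CPM in APC Min/+ and 232 to 411 CPM in WT mice, with Adgre1 at 7.312 to 28.08 CPM and Csf1r at 24.35 to 62.83 CPM.

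Pparg, the nuclear receptor, was set apart in the same 2 mice as Slc5a8, in the opposite direction. It ranged from 35.22 to 203.9 CPM with a median of 150.7 in APC Min/+ mice and from 125.8 to 203.1 CPM with a median of 152.8 in WT mice. The 2 lowest of all 12 were M10_2 (35.22 CPM) and M13_1 (41.93 CPM), 4.34-fold and 3.65-fold below the median of the other 10 mice, which lay between 125.8 and 203.9 CPM. Genotype means were 125.5 ± 70.08 and 156.7 ± 26.38 CPM (SD, n = 6 each). The log2 fold change of Pparg was -0.32 (SE 0.373, FDR = 0.911 from edgeR), and without M10_2 and M13_1 it changed sign to 0.11 (SE 0.143). Adipocytes also express Pparg. Their 9 markers (9 of 9 past the filter) were all lowest in M10_2 and M13_1, beside 12.2% of all genes tested. These markers summed to 66.7 CPM in M10_2 and 92.3 CPM in M13_1 against 179 to 1274 CPM in the other 10 mice. In those 10 mice Adipoq, the fat hormone adiponectin, ran from 4.484 CPM in M17_2 to 98.74 CPM in M2_A. Plin1, a lipid droplet protein, ran from 1.364 to 27.66 CPM in the same 2 mice. Pparg was also lowest of the 10 in M17_2 (125.8 CPM) and highest in M2_A (203.9 CPM). It was at 203.1 CPM in M18_b, where Adipoq was at 30.72 CPM. The part of adipocytes in the low Pparg values was not tested. Markers of small intestine summed to 40.2 CPM in M10_2 and 59.9 CPM in M13_1 against 897 to 1766 CPM in the other 10 mice. Most of the latter sum was Fabp2 (610.1 to 1437 CPM) and Slc10a2 (105.1 to 382.1 CPM). Lct was under 1 CPM in every mouse and Fabp6 at 2.55 to 50.7 CPM. Of the 8, 5 were lowest in both M10_2 and M13_1, beside 12.2% of all genes tested. Of the 10 colonocyte markers, 4 were lowest and 1 highest in both M10_2 and M13_1, beside 12.2% and 11.8% of all genes tested. Krt20 was at 589 and 534 CPM in them against 984.7 to 2565 CPM, and Guca2a at 314.7 and 185.4 CPM against 1155 to 1786 CPM. Car4 was the highest one (924.2 and 953.2 CPM against 241.1 to 582.2 CPM). Slc26a3, another of the 10, was at 1500 and 1999 CPM against 438.2 to 1700 CPM.

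**Figure D3:**
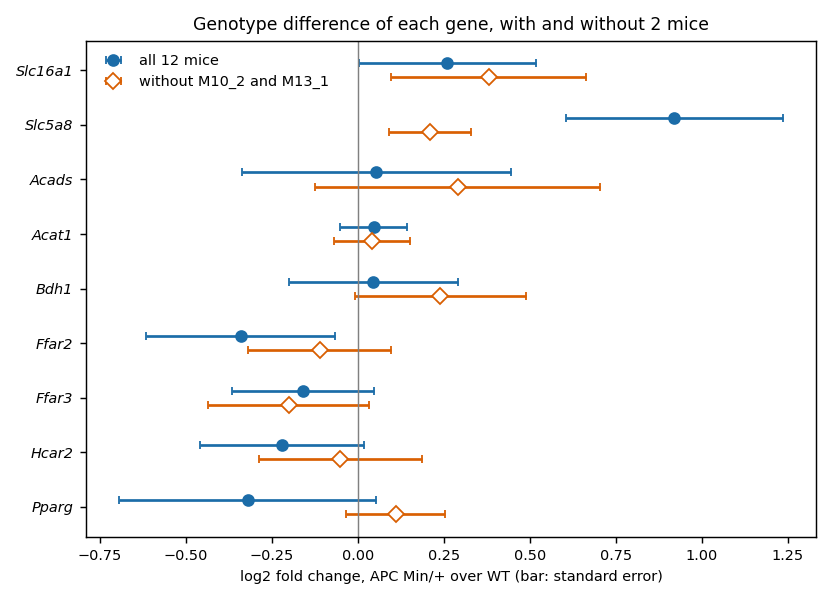
Log2 fold change of each gene, APC Min/+ over WT, with its SE, from edgeR fits on all 12 mice (filled circles) and without M10_2 and M13_1 (open diamonds). Slc5a8 went from 0.92 to 0.21, Pparg from -0.32 to 0.11, and Acat1 had the shortest bars.

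Between mice, M10_2 and M13_1 were thus both highest for 1 and both lowest for 1 of the 9 genes, shares to be read against 11.8% and 12.2% of all genes tested. The other genes of the pathway give the setting. A list of 56 transport, activation, oxidation, ketone, sensing, deacetylase and PPAR genes was tested in the same fit, and 53 passed the filter on low counts. None of the 53 passed the test between genotypes (0 called), and an unadjusted p under 0.05 was found for 2 with higher means (Slc16a3 and Acss2) and 2 with lower means (Slc16a7 and Fabp1) in APC Min/+ mice, beside the background of 3.46% and 1.81% of all genes. Without M10_2 and M13_1 it was found for 0 of 53, where 1.59% of all genes had one. The median log2 fold change of the list was -0.09 with all mice and 0.03 without these 2. M10_2 and M13_1 were both highest for 8 and both lowest for 24 of the 53 genes, beside 11.8% and 12.2% of all genes tested.

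**Figure D4:**
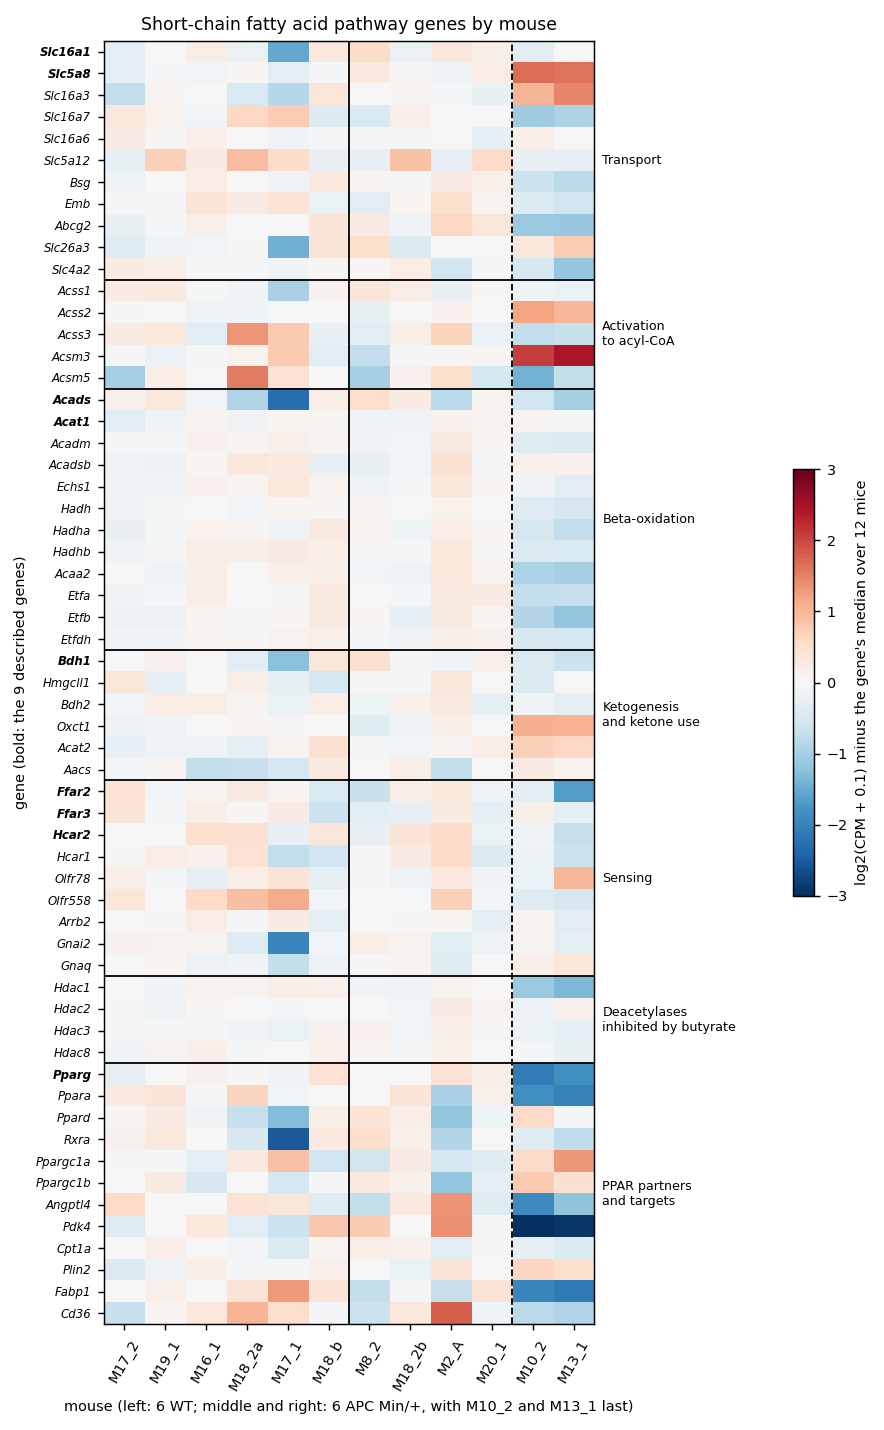
Rows are genes of the route (bold for the 9 genes described first) and columns are mice, with color giving log2(CPM + 0.1) minus the gene's median over the 12 mice, from blue (below) to red (above). The 2 right-hand columns, M10_2 and M13_1, hold many of the strongest colors, with Pdk4 and Pparg low and Acsm3 and Slc5a8 high in both.

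Oxct1 (chromosome 15, 4026383 to 4155344), the enzyme that activates acetoacetate for burning, was at 381.8 and 376.1 CPM in M10_2 and M13_1 against 142 to 206.3 CPM in the other 10 mice. The mean was 177.4 ± 10.78 CPM in WT and 242.6 ± 107.7 CPM in APC Min/+ mice (SD, n = 6 each). Oxct1 had a log2 fold change of 0.45 (SE 0.234, FDR = 0.908 from edgeR), and -0.025 without the 2 mice, and it shares 467 exonic bases (12.6%) with BC037032 on the opposite strand. Bdh1 and Acat1 serve both the making and the burning of ketone bodies. Acat1 was not set apart in M10_2 and M13_1. Bdh1 was at 129.4 and 111.4 CPM in them, below every other mouse but M17_1 (72.94 CPM). Acat2, a cytosolic thiolase, was also highest in both, at 45.18 and 42.05 CPM against 22.59 to 37.9 CPM, with a log2 fold change of 0.29 between genotypes and 0.039 without the 2 mice.

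**Figure D5:**
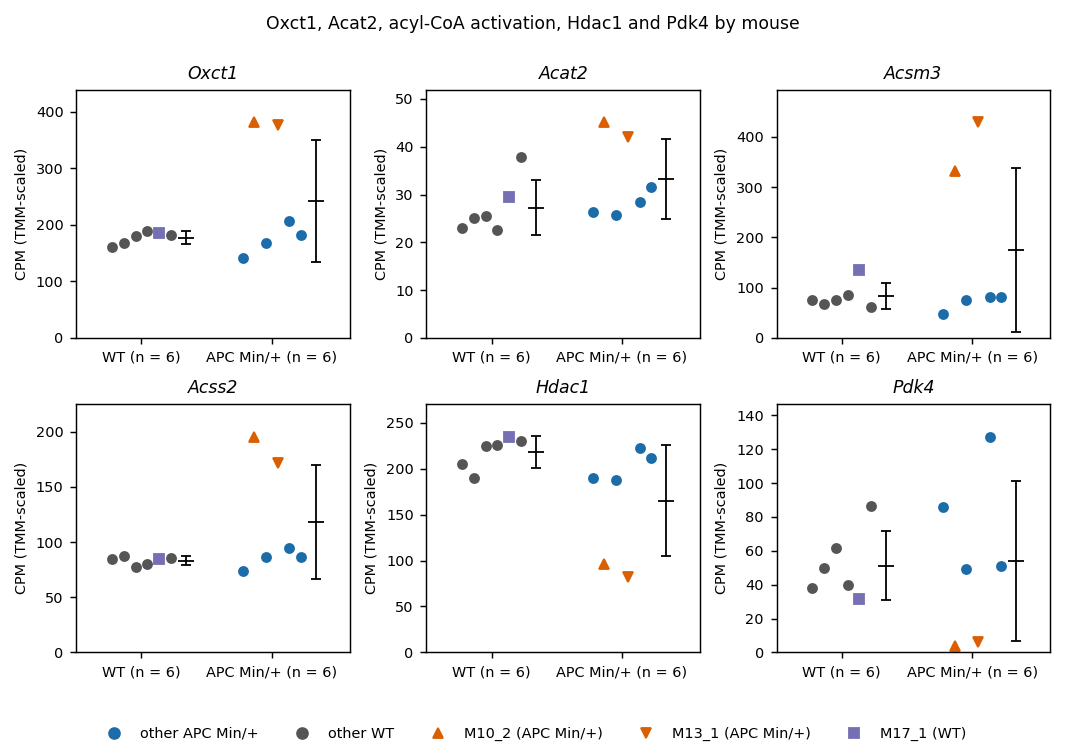
CPM of 6 pathway genes by genotype, 1 point per mouse, with the mean and SD of each genotype at the right of its points (n = 6) and axes from 0. Oxct1 was at 381.8 and 376.1 CPM in M10_2 and M13_1 against 142 to 206.3 CPM elsewhere, Acat2, Acsm3 and Acss2 were also highest there, and Hdac1 and Pdk4 were lowest there.

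Among the 5 tested genes that activate fatty acids to acyl-CoA, 2 were highest and 1 lowest in both M10_2 and M13_1, beside 11.8% and 12.2% of all genes tested. Acsm3, a medium-chain acyl-CoA synthetase of the mitochondrion, was at 332.4 and 429.5 CPM against 47.24 to 135.4 CPM in the other mice, with a log2 fold change of 1.06 (SE 0.506, FDR = 0.908 from edgeR) and -0.23 without the 2 mice. Acss2, which activates acetate, was at 195.5 and 171.8 CPM against 74.13 to 94.59 CPM. Its log2 fold change was 0.51 (FDR = 0.908 from edgeR), and 0.038 without the 2 mice. WT mice varied little for Acss2 (83.12 ± 3.783 CPM, SD, n = 6).

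Beta-oxidation genes were lowest in both mice for 8 of the 10 listed besides Acads and Acat1, and highest in both for 0, beside 12.2% and 11.8% of all genes tested. Etfb, a subunit of the electron carrier that takes electrons from Acads, was at 71.94 and 59.87 CPM against 113 to 160.9 CPM, and Hadhb, the thiolase subunit of the trifunctional protein, at 180.3 and 178.3 CPM against 226.6 to 303.8 CPM. Their log2 fold changes between genotypes were -0.24 and -0.19, and 0.04 and -0.043 without the 2 mice. Acads itself was at 118.6 and 89.84 CPM, within the range of the others.

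Of the 9 other transport genes, 4 were lowest and 1 highest in both mice, beside 12.2% and 11.8% of all genes tested. Bsg, the chaperone basigin that brings MCT1 to the membrane, was at 439.3 and 391.2 CPM in M10_2 and M13_1 against 617.3 to 844.3 CPM, and Abcg2, an efflux pump, was at 79.77 and 78.9 CPM against 146.6 to 263.5 CPM. Between genotypes their log2 fold changes were -0.17 and -0.094, and 0.056 and 0.24 without the 2 mice. Slc16a7, which encodes MCT2, had a mean of 7.207 ± 2.515 CPM in APC Min/+ and 10.75 ± 3.213 CPM in WT mice (SD, n = 6 each), and its log2 fold change was -0.58 (FDR = 0.908 from edgeR) and -0.32 without the 2 mice. Slc16a3, which encodes the lactate exporter MCT4, was at 5.334 and 7.257 CPM in them against 1.382 to 3.332 CPM, with a log2 fold change of 0.76 (FDR = 0.908 from edgeR) and 0.16 without the 2 mice. Slc5a12, the companion of Slc5a8 with lower affinity, was counted at no more than 0.1247 CPM in any mouse.

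For sensing, Gnai2, a G protein subunit that the receptors signal through, was at 144.5 to 207.2 CPM in APC Min/+ and 45.71 to 196.4 CPM in WT mice, the lowest in M17_1. Olfr558, an olfactory receptor that binds short fatty acids, averaged 3.216 ± 1.076 CPM in APC Min/+ and 4.694 ± 1.597 CPM in WT mice, and its log2 fold change was -0.55 with all mice and -0.36 without the 2 mice. Of the 4 histone deacetylases, Hdac1 was at 96.69 and 81.59 CPM in M10_2 and M13_1 against 187.5 to 234.8 CPM, and Hdac3 was lowest in both by a narrow margin (60.47 and 57.37 CPM against 60.84 to 79.25 CPM). Hdac1 had a log2 fold change of -0.40 with all mice and -0.11 without those 2.

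Among 12 partners and targets of the PPARs, 6 were lowest and 2 highest in both mice, beside 12.2% and 11.8% of all genes tested. Pdk4, which spares glucose when fat is burned, was at 3.621 and 6.44 CPM against 31.74 to 127.4 CPM, with a log2 fold change of 0.073 (SE 0.65) between genotypes and 0.61 without the 2 mice. Fabp1, a fatty acid carrier, was scarce in every mouse, at 0.06061 and 0.04418 CPM against 0.277 to 1.419 CPM, with a log2 fold change of -1.27 (FDR = 0.908 from edgeR) and -0.76 without the 2 mice. Ppara was at 9.182 and 8.053 CPM against 17.01 to 53.25 CPM, with log2 fold changes of -0.67 and -0.26 with and without these mice, while Rxra, the partner with which PPARs bind DNA, was at 93.21 and 71.56 CPM, within the 21.1 to 175.4 CPM of the others.

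The genes whose log2(CPM + 0.1) followed each of the 9 most closely are given as a description only, since genes of 1 library share its depth and base composition. Over the 10 mice without M10_2 and M13_1, Slc16a1 was followed by Aqp8, a colonocyte water channel (Pearson r = 0.990), and Cmtm8 (0.988), and Bdh1 by Fam189a2 (0.995) and Pfkl (0.993). Acads was followed by Gnb2 (0.998) and Tnfrsf1a (0.997), Acat1 by Washc3 (0.981) and Txndc9 (0.973), Ffar2 by Cyp3a11 (0.948) and Slc35g2 (0.945), and Ffar3 by Camk1 (0.941) and 2610203C22Rik (0.939). For Slc5a8, Hcar2 and Pparg the closest were Dis3l (0.931), Gm13032 (0.905) and the gene ENSMUSG00000093470.2, which had no symbol (0.973). No such values are given over all 12 mice, since M10_2 and M13_1 form a separate cluster.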

How the data were processed

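RNA-Seq of proximal colonic mucosa from 6 APC Min/+ and 6 WT mice was analysed from the count tables deposited by the authors. The libraries were sequenced in paired ends, the authors aligned reads to GRCm38.p2 with STAR (version 2.3.0 in the submitters' processing notes) and counted them on genes with featureCounts, and the deposited counts are whole numbers that were not normalized. The annotation and strand setting of the counting are not given in the sources used here. Symbols were taken from GENCODE M21 and matched 37607 of 38924 identifiers. Genes with 10 counts or more in 3 mice or more (20311) were tested in edgeR 4.0.16 (R 4.3.3) with TMM normalization and the quasi-likelihood test on genotype, and a gene was called at an FDR under 0.05 with a fold change of at least 2. DESeq2 1.42.0, limma-voom (limma 3.58.1), other scalings and filters, and fits without single mice were alternatives. Single genes were also tested by exact permutation of genotype on log2(CPM + 0.1) (924 splits, smallest p 0.00216). RPKM was computed from total counts and the deposited gene lengths. Genes named from the pathway list were, per role, the one with the highest mean RPKM and the one with the smallest p, with Oxct1; Acat2, Abcg2, Slc16a3, Slc5a12, Hdac3, Pdk4, Ppara and Rxra were named after their values were seen. Some genes of the list are not reported here, although the counts over the list include them. The genes and lists were chosen with earlier results of these data known. Nothing in the labels ties mice to litters or batches. The paper states that the mice arrived in separate shipments and shared cages with mice of their own genotype. The tests on genotype took each mouse as independent. Their p-values measure the spread between these mice and do not allow for a shared cage, shipment or litter. Counting depth sets a floor of 3 counts and covers counting error only.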

Additional observations from a re-analysis of the deposited data

Results flagged for a closer look

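Each genotype's 6 values of the 9 genes and of the 13 pathway genes named by rule were checked for a mouse far from the others (Dixon's ratio above its 95% critical value), and 3 of 44 groups were found, of which chance gives about 1 in 20. None of the 18 groups of the 9 genes was among them. Acsm3 was at 135.4 CPM in WT mouse M17_1, where the next WT mouse had 84.94 CPM. Fabp1 was at 1.419 CPM in M17_1, where the next had 0.7128 CPM. Olfr558 was at 5.254 CPM in APC Min/+ mouse M2_A, where the next had 3.211 CPM. For Slc5a8 and Pparg, M10_2 and M13_1 lie close to each other, so that this check, which looks at 1 mouse at a time, does not mark them.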

How the results depend on the processing

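Across 24 alternative fits, none of the 9 genes and none of the pathway genes tested was called in any fit, and the log2 fold changes of the 9 genes kept their sign in 203 of 215 comparisons. Over all genes, edgeR's quasi-likelihood test called 0 (1071 at an unadjusted p under 0.05), limma-voom 0 (1034), DESeq2 27, edgeR's likelihood ratio test 15 and its exact test 12. Without M10_2 and M13_1, DESeq2 called 0. The cause of these differences was not tested. The sign of Pparg turned to 0.11 without M10_2 and M13_1 (0.11 with DESeq2) and to 0.078 with M17_1 also left out. These last 2 fits were chosen after seeing the data. M10_2 and M13_1 were themselves picked out by their posterior Hox levels in these same data. Leaving out each mouse in turn gave ranges that crossed 0 for Acads (-0.15 to 0.19, lowest without M17_1), Bdh1 (-0.11 to 0.17, lowest without M17_1) and Acat1 (-0.0019 to 0.085), and did not for Slc5a8 (0.67 to 1.07), Slc16a1 (0.092 to 0.38), Pparg (-0.49 to -0.13) or the receptors. The order by level kept 7 of 9 ranks as TPM and 5 of 9 without M10_2 and M13_1. At the stricter filter of 1 CPM in 6 mice, 8 of the 9 genes were tested. No paired analysis was possible because the labels give no replicate number that pairs mice across genotypes. The SE of 0.206 to 0.39 for Acads, Bdh1, Slc16a1, Pparg and the receptors limits what could be seen with 6 mice per genotype.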
